A study of Mus musculus with 24 samples.

Results

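The 8 genes described here act on high-density lipoprotein (HDL) or carry sterols out of cells: the HDL receptor Scarb1, the plasma enzymes Lipc and Lcat, the lipid transfer protein Pltp, and the ATP-binding cassette transporters Abca1, Abcg1, Abcg5 and Abcg8. They were picked out by gene symbol, with earlier results of these data known. All 8 were found, at 1 locus each, among the 23746 loci listed for every library. RNA was sequenced from livers of C57BL/6 mice carrying floxed Foxo1 alleles, 24 libraries in 8 groups of 3. In the acute model, floxed mice were injected with an AAV8 virus whose TBG promoter, active in hepatocytes, drove either Cre recombinase (Cre, which deletes Foxo1) or eGFP (GFP, the control), and livers were collected 21 days later. In the constitutive model, Foxo1-/- mice (KO), made by crossing the floxed line with Albumin-cre mice, were set against FoxO1lox/lox mice (WT). The groups were Cre refed, GFP refed, Cre fasted, GFP fasted, KO refed, WT refed, KO fasted and WT fasted, where fasted means 4 h without food and refed means 1 h of food after that fast. Both promoters act in hepatocytes, and the albumin promoter is also active in the fetal precursors that hepatocytes share with bile duct cells. Foxo1 in the other cells of the liver was not measured apart. Nothing in the labels says whether the 3 libraries of a group are different animals. The p-values therefore reflect only how far these samples spread, and that spread may be technical.

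HDL forms when Abca1 loads cell cholesterol and phospholipid onto apolipoprotein A-I, and Abcg1 adds cholesterol to particles already formed. In plasma Lcat esterifies that cholesterol, Pltp moves phospholipid between particles and hepatic lipase (Lipc) trims their lipids. In the liver Scarb1 takes up cholesteryl ester from HDL, and Abcg5 and Abcg8, which work only as a pair, pump sterols into bile. FoxO1 is a transcription factor that insulin removes from the nucleus, so it acts mainly during fasting.

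The labels held up in Foxo1 itself, which lay between 0.212 and 0.571 FPKM in the 12 knockout libraries and between 4.21 and 6.81 FPKM in the 12 controls. FPKM counts fragments per kilobase of transcript and per size of the library, so levels can be set beside each other between genes. Total depth is unknown. Relative depth, read from the steps between low values, was 1.16 to 1.37 times the mean in 4 acute libraries (Cre refed 1, GFP refed 3, Cre fasted 1 and GFP fasted 3), 0.546 to 0.672 in the other 8 acute libraries and 1.08 to 1.27 in the constitutive ones. Albumin, the defining hepatocyte product, lay between 31525 and 51492 FPKM. The fat-cell genes Lep and Retn and the pancreatic genes Prss1, Cpa1 and Pnlip were listed at 0 in all 24 libraries. Other fat-cell and pancreatic markers were not all at 0. Fabp4 lay at 6.32 to 18.3 FPKM, Cfd reached 5.40 FPKM, and the pancreatic gene Cela2a lay at 0.0791 to 1.40 FPKM. In whole liver, fewer cells of a type and less RNA per cell cannot be told apart.

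Abcg5 and Abcg8 lie head to head on chromosome 17 and are read away from each other. The stretch between their start sites is shown because it is the only upstream sequence 2 of the 8 genes share, and these 2 genes were the pair whose levels moved most closely together (described at the end). In the RefSeq promoters of build GRCm38.p6, the start sites used here lie 110 bases apart. A further Abcg8 promoter is listed at 84676052 to 84676351, within the span of Abcg5. The stretch between them, chr17:84683012-84683120 on the plus strand, is printed 5′ to 3′ in the direction of Abcg8.
Abcg5-Abcg8: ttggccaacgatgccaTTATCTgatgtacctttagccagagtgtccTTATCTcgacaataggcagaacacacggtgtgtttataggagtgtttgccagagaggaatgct
The capitals mark the 2 places where the minus strand reads AGATAA, a core that GATA factors can bind. This motif was chosen after the sequence had been seen. On either strand, AGATAA occurs in 11.2% of all 32851 promoters of 300 bases (250 before the start site and 50 after). RefSeq promoters, 8 in all, were matched for 6 of the 8 genes (Lipc, Lcat, Pltp, Abca1, Abcg5 and Abcg8). Of these 6 genes 4 held it, Lipc and Lcat besides this pair. The matches of Abcg5 and Abcg8 are the same places, within the 209 bases their promoters share, where the motif was chosen. The count is also per gene, so it cannot be set against the share per promoter. The FoxO core TGTTTAC (3.65% of all promoters), the related core TGTTTTG (6.28%) and the LXR direct repeat, the hexamer AGGTCA repeated after a spacer of 4 bases with up to 2 mismatches (3.02%), were searched on both strands and occurred in 0 of the 6, which says only that these letters are not in these windows.

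The levels of the 8 genes spanned a wide range, with Lcat, Lipc and Abcg1 in a fixed place and other members overlapping. Lcat was the most abundant, at 217 to 290 FPKM with a median of 244, and it varied least, with the highest library at 1.34 times the lowest. Lipc came next at 51.4 to 92.3 FPKM, above all other members but Lcat in 24 of 24 libraries. Abcg5 (29.9 to 64.5 FPKM), Scarb1 (28.1 to 59.4 FPKM) and Abcg8 (20.0 to 50.9 FPKM) overlapped. Abcg5 lay above Abcg8 in 24 of 24 libraries, while Scarb1 lay above Abcg5 in 7 of 24 and above Abcg8 in 16 of 24. Abca1 (8.13 to 17.4 FPKM) and Pltp (6.12 to 27.0 FPKM) could not be ordered, each being the higher in 12 of 24 libraries. Pltp varied most among the 7 well-expressed genes, 4.42-fold between its extremes. Abcg1 was lowest, at 0.294 to 0.897 FPKM, below the minimum of 1 FPKM in 3 libraries used here, so 7 of the 8 genes were tested.

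**Figure D1:**
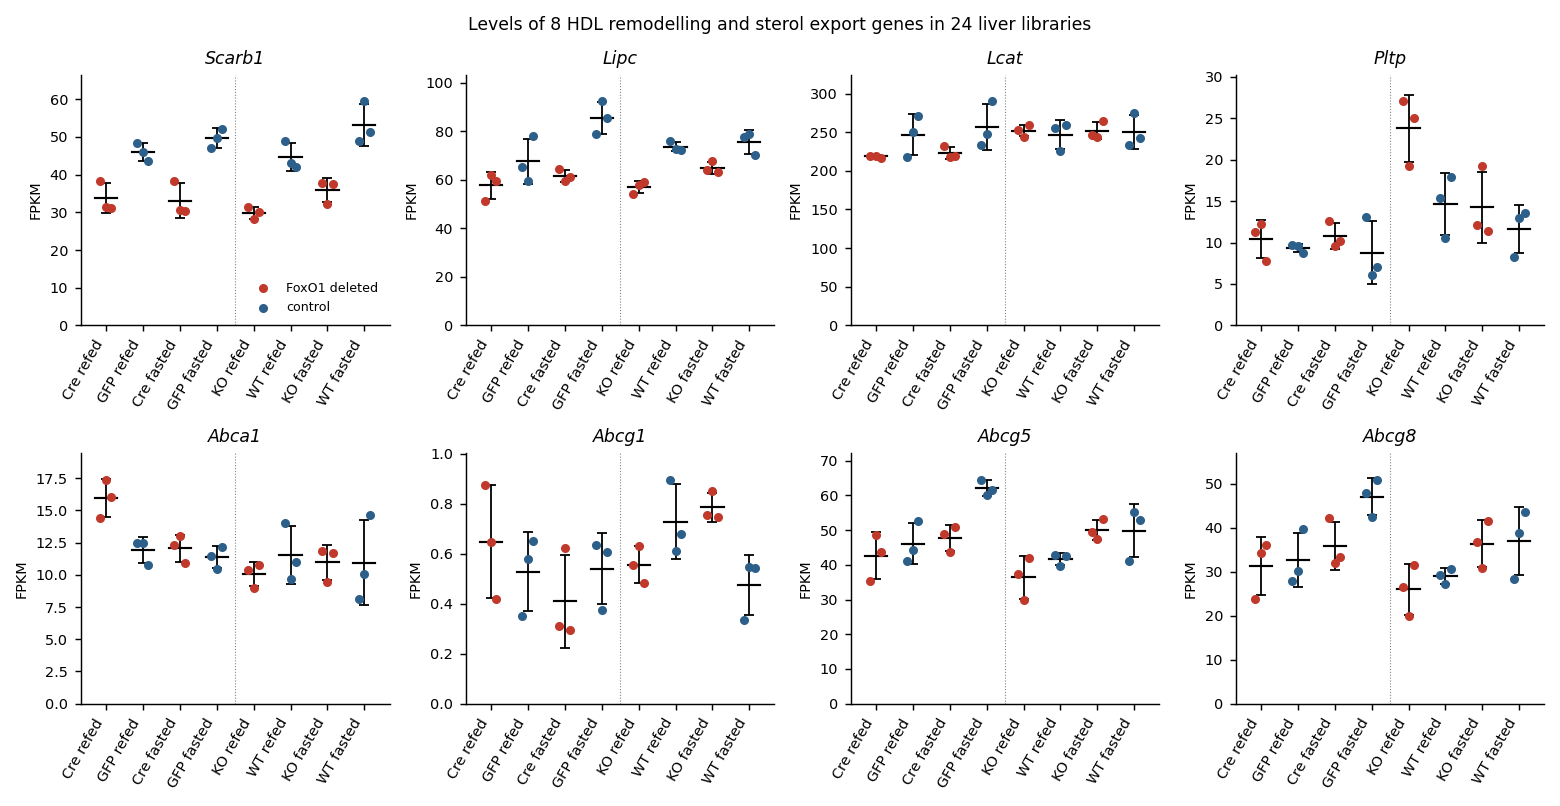
FPKM of each of the 8 genes in the 24 libraries. Points are libraries, horizontal lines are group means with SD (n = 3), red marks FoxO1-deleted livers and blue their controls, and the dotted line separates the acute model (left) from the constitutive one. For Scarb1, the red points (28.1 to 38.4 FPKM) lie below all blue points (41.9 to 59.4 FPKM).

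Livers without FoxO1 had less Scarb1 RNA in both models and in both feeding states. Scarb1 (chromosome 5, 125277087 to 125341094, mm10, minus strand) encodes SR-BI, the receptor through which hepatocytes take cholesteryl ester from HDL. Its levels were 38.4, 31.5 and 31.3 FPKM in Cre refed livers, against 48.4, 46.0 and 43.6 FPKM in GFP refed livers. In fasted acute livers they were 38.4, 30.5 and 30.3 FPKM with Cre, against 47.1, 49.8 and 52.2 FPKM with GFP. The higher library of each Cre group was the deeper one, and the groups did not overlap in either state. Constitutive refed livers had 31.3, 28.1 and 30.0 FPKM in KO, against 49.0, 43.1 and 41.9 FPKM in WT. Fasted ones had 37.9, 32.2 and 37.4 FPKM in KO, against 48.9, 59.4 and 51.3 FPKM in WT. All 12 knockout libraries therefore lay below all 12 controls, with medians of 31.4 and 48.7 FPKM. Of 10682 genes kept in the fit of all libraries, 0.0187% were separated in this way downward (Foxo1 and Scarb1), and 0.00936% upward (Cars, a cysteinyl-tRNA synthetase gene, named after its value was seen).

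Ratios of group means for Scarb1 were 0.733 in refed and 0.665 in fasted acute livers, and 0.667 in refed and 0.673 in fasted constitutive livers. Averaged over both models and states, the difference in log2(FPKM + 1) was -0.54 ± 0.0518 (SE; limma, Benjamini-Hochberg adjusted p = 5.38e-06), which ranked 4 of 10682 genes by p. It was -0.51 ± 0.0768 within the acute model (adjusted p = 0.0111) and -0.56 ± 0.0687 within the constitutive model (adjusted p = 0.00453). The adjusted p lay between 3.12e-06 and 2.53e-05 with each of the 24 libraries left out in turn. Taken singly, none of the 4 comparisons passed limma's test: -0.44 ± 0.109 in refed acute livers (adjusted p = 0.186), -0.58 ± 0.109 in fasted acute livers (0.056), -0.57 ± 0.0971 in refed constitutive livers (0.0656) and -0.56 ± 0.0971 in fasted constitutive livers (0.0679). The difference between models was 0.05 ± 0.104, smaller than its SE.

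Lipc was the second member that passed the test on average. It encodes hepatic lipase, which hydrolyses phospholipid and triglyceride of HDL and remnant particles (chromosome 9, 70798128 to 70934808, minus strand). In refed acute livers its levels were 51.4, 62.2 and 59.6 FPKM with Cre, against 65.5, 59.5 and 77.9 FPKM with GFP, and the groups overlapped. In fasted acute livers they were 64.4, 59.6 and 61.0 FPKM with Cre, against 79.0, 92.3 and 85.4 FPKM with GFP, with no overlap. Constitutive groups did not overlap either, at 54.0, 57.8 and 58.9 FPKM in KO refed livers, against 76.1, 72.7 and 72.3 FPKM in WT refed livers. Fasted constitutive livers had 63.8, 67.8 and 63.3 FPKM in KO, against 77.7, 79.1 and 70.03 FPKM in WT. The mean difference was -0.32 ± 0.0448 in log2(FPKM + 1) (limma, adjusted p = 0.000337, rank 28 of 10682), and it passed with any of the 24 libraries left out. Within the constitutive model it was -0.29 ± 0.0495 (adjusted p = 0.0213), and within the acute model -0.34 ± 0.077 (adjusted p = 0.0565), where the test was not passed. The single comparisons gave -0.22 (refed acute), -0.46 (fasted acute), -0.37 (refed constitutive) and -0.21 (fasted constitutive), with adjusted p from 0.105 to 0.583.

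Scarb1 and Lipc were thus the 2 of 7 tested members called in the mean of both models and states, both lower in knockouts. Of all 10682 genes, 1.98% were called lower and 1.16% higher, 3.14% in all, or 335 genes (219 without KO refed 1, and 219 to 363 over the 24 libraries left out). At an unadjusted p under 0.05 there were 4 of the 7 members and 15.7% of all genes. The members' median was -0.16, against 0.0022 over all genes, and 5 of the 7 lay below 0. Hepatocyte markers moved in the same average: 2 of 10 were called lower, Apoa1 and the cytochrome Cyp2e1 (-0.37 ± 0.0613, adjusted p = 0.00141), and 5 of 10 had an unadjusted p under 0.05, with a list median of -0.0012. Their part in the members' levels was not tested. In each single comparison 0 of 7 were called by limma. At an unadjusted p under 0.05 there were 2 in refed acute livers, where 0.105% of all genes were called and 9.09% reached that unadjusted p. There were 4 in fasted acute livers (0.297% and 12.3%), 3 in refed constitutive livers (0.0289% and 10.8%) and 2 in fasted constitutive livers (0.0964% and 6.56%). With single libraries left out, the genes called ranged from 3 to 66 against 11 in refed acute livers, from 7 to 36 against 31 in fasted acute livers, from 2 to 13 against 3 in refed constitutive livers and from 1 to 7 against 10 in fasted constitutive livers. The share of all genes whose knockouts lay wholly below controls was 6.51%, 9.55%, 8.50% and 4.64% in these 4 comparisons, and wholly above 6.17%, 9.15%, 6.80% and 7.52%.

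**Figure D2:**
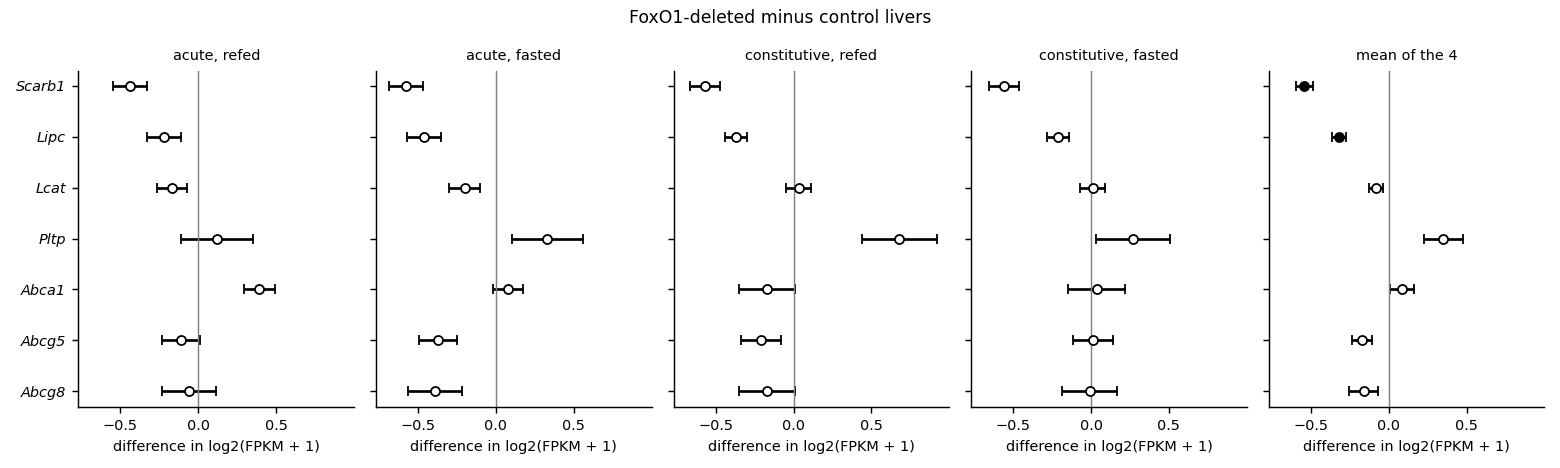
Difference in log2(FPKM + 1) between FoxO1-deleted and control livers for the 7 tested genes, in each model and feeding state and averaged over the 4. Bars are SE from limma, filled circles are called at an adjusted p under 0.05, open circles are not, and only Scarb1 (-0.54) and Lipc (-0.32) are filled, in the averaged panel.

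The other plasma proteins did not pass. Lcat, the enzyme that esterifies HDL cholesterol (chromosome 8, 105939551 to 105943402, minus strand), was at 219, 220 and 217 FPKM in Cre refed livers, against 218, 250 and 271 FPKM in GFP refed livers. Fasted acute livers had 232, 218 and 219 FPKM with Cre, against 233, 248 and 290 FPKM with GFP. The fasted groups did not overlap, but the upper Cre and the lower GFP library lay close together. Constitutive means were 252 ± 7.56 FPKM in KO and 247 ± 18.4 FPKM in WT refed livers, and 252 ± 11.0 FPKM in KO and 251 ± 22.0 FPKM in WT fasted livers (SD, n = 3 each). The mean difference over all strata was -0.081 ± 0.0441 (limma, adjusted p = 0.406).

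Pltp, which transfers phospholipid from triglyceride-rich particles to HDL (chromosome 2, 164839518 to 164857708, minus strand), stood highest in KO refed livers. Its levels there were 27.0, 19.3 and 25.1 FPKM, against 15.4, 10.5 and 18.0 FPKM in WT refed livers, with no overlap. The log2 difference was 0.68 ± 0.239 (limma, adjusted p = 0.413), so it did not pass. In fasted constitutive livers the levels were 12.1, 19.2 and 11.4 FPKM in KO, against 8.27, 12.9 and 13.6 FPKM in WT. Acute groups overlapped, at 11.3, 12.2 and 7.78 FPKM in Cre refed, against 9.70, 9.58 and 8.77 FPKM in GFP refed livers. Fasted acute livers had 12.6, 9.52 and 10.2 FPKM with Cre, against 13.1, 6.12 and 7.05 FPKM with GFP, where the first library stood apart from the other two. The mean over all strata was 0.35 ± 0.126 (adjusted p = 0.16). It passed only without the library GFP fasted 1, at 0.42 (adjusted p = 0.0491, with 0.0491 to 0.284 over the 24 libraries left out in turn). Of the exonic bases of Pltp in GENCODE, 19.3% overlap Ctsa on the opposite strand. The strand setting of the counting is not stated. Ctsa, a lysosomal carboxypeptidase gene, was at 44.9 ± 2.30 FPKM in KO refed and 39.1 ± 1.30 FPKM in WT refed livers (SD, n = 3 each). Summed cholangiocyte markers were at 40.9 to 85.6 FPKM in KO refed and 28.1 to 46.9 FPKM in WT refed livers, nearly all of it Spp1 (19.1 to 81.0 FPKM over the 24 libraries), while Krt19, the highest of the other 5, did not exceed 1.41 FPKM. Their part in the Pltp level was not tested.

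Abca1, the transporter that starts HDL assembly (chromosome 4, 53030789 to 53159895, minus strand), was higher in 1 knockout group only as values, not as a call. Cre refed livers had 14.4, 17.4 and 16.04 FPKM, against 12.5, 12.5 and 10.7 FPKM in GFP refed livers, with no overlap. The log2 difference was 0.39 ± 0.0987 (limma, adjusted p = 0.196). Fasted acute livers overlapped, at 12.3, 13.0 and 10.9 FPKM with Cre, against 11.5, 10.5 and 12.2 FPKM with GFP. The change of the deletion effect with refeeding was 0.32 ± 0.14 in the acute model (adjusted p = 0.749). Constitutive groups overlapped in both states, with means of 10.0 ± 0.913 FPKM in KO and 11.5 ± 2.23 FPKM in WT refed livers, and 11.0 ± 1.35 FPKM in KO and 10.9 ± 3.32 FPKM in WT fasted livers (SD, n = 3 each). The acute minus constitutive difference of the deletion effect was 0.30 ± 0.153 (adjusted p = 0.509), so the models were not shown to differ. Summed Kupffer cell markers ranged from 38.9 to 235 FPKM in Cre refed and from 67.4 to 132 FPKM in GFP refed livers, and their part in the Abca1 level was not tested.

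Abcg1, an exporter of cholesterol to HDL known mainly from macrophages (chromosome 17, 31057694 to 31117981, plus strand), was too low for the test. The authors' deposited intervals around its values reached 19.6% to 47.2% of the value to each side. In fasted constitutive livers it was at 0.756, 0.852 and 0.748 FPKM in KO, against 0.336, 0.547 and 0.541 FPKM in WT. In refed ones it was at 0.554, 0.632 and 0.482 FPKM in KO, against 0.897, 0.611 and 0.681 FPKM in WT. The fasted KO libraries lay above their controls, while the refed groups overlapped with KO at the lower end. Fitted without the filter, the fasted difference was 0.28 ± 0.0763 (limma, adjusted p = 0.414). Summed Kupffer cell markers, 10 genes, were at 127 to 177 FPKM in KO fasted and 71.6 to 129 FPKM in WT fasted livers, and summed endothelial markers, also 10 genes, at 68.7 to 79.7 and 48.9 to 55.9 FPKM. The part of these cells in the Abcg1 level was not tested.

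The biliary sterol pump did not pass for the deletion. Abcg5 (chromosome 17, 84658234 to 84682923, minus strand) was at 48.9, 43.7 and 50.8 FPKM in Cre fasted livers, against 64.5, 60.2 and 61.5 FPKM in GFP fasted livers. Abcg8 (chromosome 17, 84683131 to 84700333, plus strand) was at 42.1, 32.1 and 33.4 FPKM in Cre fasted livers, against 47.8, 42.5 and 50.9 FPKM in GFP fasted livers. Neither gene's groups overlapped in that state, with log2 differences of -0.37 ± 0.122 for Abcg5 and -0.39 ± 0.173 for Abcg8 (limma, adjusted p = 0.239 and 0.387). Summed endothelial markers lay there at 29.4 to 58.9 FPKM in Cre fasted and 48.2 to 93.7 FPKM in GFP fasted livers, with 10 of 10 genes below 0, a median log2 difference of -0.57 and 0 called by limma, 8 of them at an unadjusted p under 0.05, and their part was not tested. In the other 3 strata the groups of both genes overlapped. Over all strata the mean was -0.17 ± 0.065 for Abcg5 (adjusted p = 0.194) and -0.16 ± 0.0927 for Abcg8 (adjusted p = 0.443).

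The other genes of HDL and sterol transport were counted in the same average, where 1.98% of all genes were called lower and 1.16% higher. Of 13 HDL apolipoproteins and associated proteins, 2 were called lower and 0 higher: Apom, which carries sphingosine-1-phosphate on HDL, by -0.46 ± 0.0635 in log2(FPKM + 1) (limma, adjusted p = 0.000289), and Apoa1, the main HDL protein, by -0.20 ± 0.0472 (adjusted p = 0.0229). Apoa1 was not lower in every stratum, at 8980 ± 903 FPKM in KO refed and 8890 ± 554 FPKM in WT refed livers (SD, n = 3 each). Apom averaged 257 ± 5.63 FPKM in Cre refed and 373 ± 65.1 FPKM in GFP refed livers, and 212 ± 14.1 FPKM in KO fasted and 313 ± 18.3 FPKM in WT fasted livers (SD, n = 3 each). Of 13 lipases, lipoprotein receptors and their regulators, Angptl4, an inhibitor of lipoprotein lipase, fell by 0.48 ± 0.122 (adjusted p = 0.0336) and the heparan sulfate proteoglycan Sdc1 rose by 0.29 ± 0.0646 (adjusted p = 0.015). Of 15 tested genes of sterol traffic, the sterol carrier Stard5 (-0.24 ± 0.0369, adjusted p = 0.000783) and the bile salt pump Abcb11 (-0.14 ± 0.0364, adjusted p = 0.0397) fell on average. Abcb11 lay the other way in refed acute livers, at 85.8 ± 5.92 FPKM with Cre and 76.4 ± 3.55 FPKM with GFP (SD, n = 3 each). Of 13 tested LXR targets, genes switched on by the sterol-sensing receptors Nr1h2 and Nr1h3, 0 were called by limma and 4 had an unadjusted p under 0.05. These targets include the members Abca1, Abcg5, Abcg8 and Pltp, and Abcg5 and Pltp are among the 4. Of 19 SREBP2 targets, genes of cholesterol synthesis and uptake, 0 were called and 0 had an unadjusted p under 0.05. Medians were -0.067, 0.029, -0.0098, 0.043 and 0.07 for these 5 lists, against 0.0022 over all genes. Of 21 regulators of these pathways, Foxo1 and the coactivator Ppargc1a (-0.39 ± 0.0772, adjusted p = 0.00677) fell and the forkhead factor Foxa3 rose (0.38 ± 0.079, adjusted p = 0.0102), with a list median of -0.043. Foxa3 was called singly only in fasted acute livers (0.88 ± 0.128, limma, adjusted p = 0.0134), and its groups overlapped in the other strata. Ppargc1a, a low gene, overlapped in fasted constitutive livers, at 1.27 to 1.47 FPKM in KO and 0.943 to 1.79 FPKM in WT.

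Refeeding for 1 h was compared with the fast that preceded it in each genotype, and the biliary pump showed the largest fall among the members. Averaged over both models and genotypes, Abcg8 fell by 0.38 ± 0.0927 (limma, adjusted p = 0.0043) and Abcg5 by 0.32 ± 0.065 (adjusted p = 0.00103) in log2(FPKM + 1). Lipc fell by 0.17 ± 0.0448 (adjusted p = 0.00895) and Scarb1 by 0.14 ± 0.0518 (adjusted p = 0.0399). These 4 of 7 tested members were called lower and 0 higher, where 10.4% of all 10682 genes were called lower and 19.9% higher, 1108 and 2128 genes and 30.3% in all. At an unadjusted p under 0.05 there were 5 of the 7 members and 42.2% of all genes. With libraries scaled by the median of ratios, the split over all genes was 1661 lower and 1538 higher, and the same 4 members were called. The members' median was -0.14, against 0.038 over all genes.

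Abcg5 was at 41.2, 44.2 and 52.7 FPKM in GFP refed livers, against 64.5, 60.2 and 61.5 FPKM in GFP fasted livers, with no overlap. In acute knockouts it was at 35.4, 48.7 and 43.8 FPKM in Cre refed, against 48.9, 43.7 and 50.8 FPKM in Cre fasted livers. The Cre groups overlapped, and the lowest of the 6 was the deeper refed library. In constitutive livers KO refed lay wholly below KO fasted, at 37.3, 29.9 and 42.1 FPKM against 49.4, 47.3 and 53.1 FPKM. WT refed livers had 42.9, 39.8 and 42.6 FPKM, against 41.2, 55.3 and 53.0 FPKM in WT fasted livers, where 1 fasted library lay among the refed ones. Abcg5 fell within each model as well, by 0.30 ± 0.0863 in the acute one (adjusted p = 0.0323) and by 0.35 ± 0.0913 in the constitutive one (adjusted p = 0.0277).

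Abcg8, the partner of Abcg5 in the pump, was at 27.9, 30.2 and 39.6 FPKM in GFP refed livers, against 47.8, 42.5 and 50.9 FPKM in GFP fasted livers, with no overlap. Cre refed livers had 23.8, 34.2 and 36.0 FPKM, against 42.1, 32.1 and 33.4 FPKM in Cre fasted livers, and these overlapped. KO refed livers had 26.5, 20.0 and 31.5 FPKM, against 36.7, 30.8 and 41.6 FPKM in KO fasted livers, where the ends of the groups crossed. WT refed livers had 29.2, 27.1 and 30.7 FPKM, against 28.4, 38.7 and 43.6 FPKM in WT fasted livers. Within single models Abcg8 just missed the threshold, at -0.36 ± 0.122 in the acute (adjusted p = 0.0576) and -0.40 ± 0.125 in the constitutive livers (adjusted p = 0.0525).

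Lipc differed most with refeeding in acute controls, at 67.6 ± 9.37 FPKM in GFP refed and 85.6 ± 6.65 FPKM in GFP fasted livers (SD, n = 3 each), and least in WT livers, at 73.7 ± 2.04 FPKM refed and 75.6 ± 4.89 FPKM fasted. It passed in neither model alone, at -0.22 ± 0.077 in acute livers (adjusted p = 0.0678) and -0.11 ± 0.0495 in constitutive livers (adjusted p = 0.148). Scarb1 passed within the constitutive model, at -0.25 ± 0.0687 (adjusted p = 0.0332), and gave a difference smaller than its SE within the acute model (adjusted p = 0.756), but the models' responses were not tested against each other. The averaged call was lost with 13 of the 24 libraries left out singly, with an adjusted p from 0.017 to 0.0778.

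The remaining genes were not called for refeeding. Abca1 stood wholly above its fasted level in acute knockouts, at 15.9 ± 1.48 FPKM in Cre refed and 12.1 ± 1.06 FPKM in Cre fasted livers (0.38 ± 0.0987, limma, adjusted p = 0.0504), and its mean over all strata was 0.10 ± 0.0766 (adjusted p = 0.323). Within the acute model it was called higher, at 0.22 ± 0.0698 (adjusted p = 0.049), while in the constitutive model the difference was smaller than its SE. The Abca1 response was not tested for a difference between models. Kupffer cell markers summed to 38.9 to 235 FPKM in Cre refed and 47.2 to 72.3 FPKM in Cre fasted livers. Of these 10 markers 0 were called by limma, with a median log2 difference of 0.81. In the same comparison 3 of 10 endothelial and 2 of 8 tested stellate cell markers were called higher, where 5.44% of all genes were called. Their medians were 0.75 and 0.71, against 0.077 over all genes, and the part of these cells was not tested. Pltp was at 23.8 ± 4.03 FPKM in KO refed and 14.2 ± 4.33 FPKM in KO fasted livers (SD, n = 3 each), wholly above but not called (0.73 ± 0.239, adjusted p = 0.0879). Its mean over all strata was 0.28 ± 0.126 (adjusted p = 0.0944). The mean passed without GFP fasted 1, at 0.36 (adjusted p = 0.0226), or without KO fasted 2, at 0.34 (adjusted p = 0.0463), with an adjusted p of 0.0226 to 0.169 over the 24 libraries left out. The mean for Lcat was smaller than its SE. Abcg1 was at 0.554, 0.632 and 0.482 FPKM in KO refed livers, against 0.756, 0.852 and 0.748 FPKM in KO fasted livers, and lay the other way in WT livers, at 0.897, 0.611 and 0.681 FPKM refed, against 0.336, 0.547 and 0.541 FPKM fasted. The difference between these 2 responses was -0.43 ± 0.108 without the filter (limma, adjusted p = 0.942).

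In the 4 single refeeding comparisons limma called 0 of the 7 members. At an unadjusted p under 0.05 there were 1 in acute knockouts, where 5.44% of all genes were called and 2513 of 10452 (24%) reached that p, and 3 in acute controls (6.56% and 23.8%). There were 5 in constitutive knockouts (5.68% and 25.5%) and 1 in constitutive controls (0.318% and 15.6%). The numbers of genes called depended on single libraries. The 569 of acute knockouts became 57 without Cre fasted 2 (57 to 428 over the 6 libraries left out) and 6 without the deeper libraries, and the 686 of acute controls became 293 without GFP fasted 1 (293 to 578). The 589 of constitutive knockouts became 71 without KO fasted 1 (71 to 740), and the 33 of constitutive controls became 6 without WT refed 3 (6 to 32). Genes whose refed libraries lay wholly below the fasted ones made up 7.39%, 7.23%, 17.2% and 9.51% of all genes in these comparisons, and wholly above 23.0%, 19.9%, 13.1% and 10.2%. No member's deletion effect was shown to differ with feeding state. The interaction called 0 of 7 in the acute model, with 1 at an unadjusted p under 0.05 (0.0287% of all genes called, 6.60% at that p), and 0 of 7 in the constitutive model, with 0 at that p (0% and 4.40%). The difference between models in the deletion effect also called 0 of 7, with 1 at an unadjusted p under 0.05 (0% and 10.2%).

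**Figure D3:**
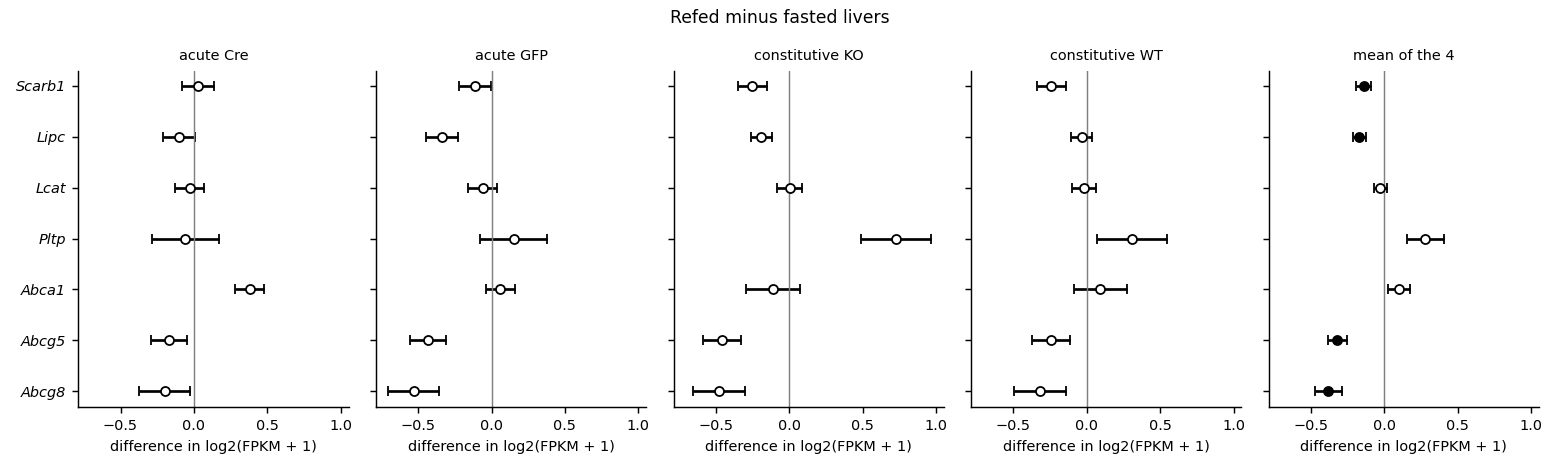
Difference in log2(FPKM + 1) between refed and fasted livers for the 7 tested genes, in each genotype of each model and averaged over the 4. Bars are SE from limma and filled circles are called at an adjusted p under 0.05: Scarb1 (-0.14), Lipc (-0.17), Abcg5 (-0.32) and Abcg8 (-0.38) are filled, in the averaged panel.

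Other genes of the pathway moved both ways on refeeding, in an average where 10.4% of all genes were called lower and 19.9% higher. Of 13 tested LXR targets, 4 were called higher, led by Cyp7a1, which commits cholesterol to bile acids (1.27 ± 0.145 in log2(FPKM + 1), limma, adjusted p = 4.88e-06), and fatty acid synthase Fasn (0.60 ± 0.158, adjusted p = 0.00729). The 4 called lower included the members Abcg5 and Abcg8, already counted above. The others were the phospholipid-remodelling enzyme Lpcat3 (-0.27 ± 0.0652, adjusted p = 0.00426) and the carbohydrate-responsive factor Mlxipl (-0.19 ± 0.0581, adjusted p = 0.0164). Of 15 tested genes of sterol traffic and esterification, 6 were called lower and 0 higher. They include Soat2, which esterifies cholesterol in hepatocytes (-0.33 ± 0.0874, adjusted p = 0.00706), the canalicular pumps Abcb11 for bile salts (-0.24 ± 0.0364, adjusted p = 6.88e-05) and Abcb4 for phosphatidylcholine (-0.23 ± 0.0653, adjusted p = 0.0106), and Abca2 (-0.24 ± 0.0581, adjusted p = 0.00434). Each of these 3 transporters lay higher in 1 stratum as a group mean, Abcb11 and Abca2 in Cre refed and Abcb4 in GFP refed livers. Of 19 SREBP2 targets, 4 were called higher and 0 lower, where 19.9% of all genes were called higher, and 5 of the 19 lay below 0. Among the 4 were the synthesis enzymes Sqle, at 0.50 ± 0.172 (adjusted p = 0.0323), and Fdps, at 0.39 ± 0.138 (adjusted p = 0.0405).

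Endothelial lipase Lipg, the other lipase that acts on HDL, rose by 0.70 ± 0.0987 (adjusted p = 4.32e-05), while Lipc fell. Lipg averaged 15.3 ± 1.94 FPKM in GFP refed and 6.37 ± 0.613 FPKM in GFP fasted livers, and 9.84 ± 1.51 FPKM in Cre refed and 4.26 ± 0.552 FPKM in Cre fasted livers (SD, n = 3 each). Constitutive livers overlapped, at 7.48 to 12.3 FPKM in WT refed and 6.56 to 8.43 FPKM in WT fasted, and at 7.62 to 11.6 FPKM in KO refed and 5.88 to 11.4 FPKM in KO fasted livers. Of the 13 genes in its list, 2 were called higher, Lipg among them, and 3 lower, led by Angptl4 (-0.33 ± 0.122, adjusted p = 0.0476) and the receptor Lrp1 (-0.29 ± 0.0672, adjusted p = 0.00283). Of 13 HDL apolipoproteins and associated proteins, limma called 0, and 1 had an unadjusted p under 0.05. Of 21 regulators, 5 were called higher, led by Foxa3 (0.66 ± 0.079), and 2 lower, Nr5a2 (-0.30 ± 0.0779) and Mlxipl. Over all genes, 19.9% were called higher and 10.4% lower. Medians were 0.059 for LXR targets, -0.055 for sterol traffic, 0.13 for SREBP2 targets, 0.15 for lipases, 0.025 for regulators and -0.019 for apolipoproteins, against 0.038 over all genes. Markers of other cells moved in the same average, where 19.9% of all genes were called higher: 5 of 10 Kupffer cell, 4 of 10 endothelial and 7 of 8 tested stellate cell genes were called higher, with medians of 0.54, 0.24 and 0.42, while 0 of 10 hepatocyte markers were called by limma and 1 had an unadjusted p under 0.05. In constitutive knockouts, where Abcg5 gave -0.46, endothelial markers ran the other way, with 9 of 10 below 0, a median of -0.25, 4 at an unadjusted p under 0.05 and Fcgr2b called lower (-0.39 ± 0.0971, adjusted p = 0.0406). Kupffer cell markers did not, with 7 of 10 above 0 and a median of 0.10. Nor did stellate cell markers, with 7 of 8 above 0, a median of 0.18 and Col1a2 called higher by limma (0.66 ± 0.158, adjusted p = 0.0375). The part of these cells in the refeeding results was not tested.

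Abcg5 and Abcg8 moved together from library to library. With each model centred on its own mean, log2(FPKM + 1) of the 2 genes correlated over the 24 libraries with a Pearson r of 0.94 and a Spearman rho of 0.90, given as a description with no p, since libraries of a group share their condition. The r was 0.91 without the 2 libraries farthest from the median of Abcg5, 0.92 in the 12 acute and 0.96 in the 12 constitutive libraries. It was 0.89 for deviations from the 8 group means, which leaves out the differences between groups. The ratio of Abcg5 to Abcg8 lay between 1.16 and 1.54 in all 24 libraries, with a median of 1.41. In GENCODE 82 exonic bases of these oppositely transcribed genes overlap, 3.02% of Abcg5 and 2.19% of Abcg8. Scarb1 and Lipc, the 2 members called for the deletion, gave an r of 0.74 over the 24 libraries, 0.67 in the acute and 0.88 in the constitutive ones, but -0.16 for deviations from the group means.

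**Figure D4:**
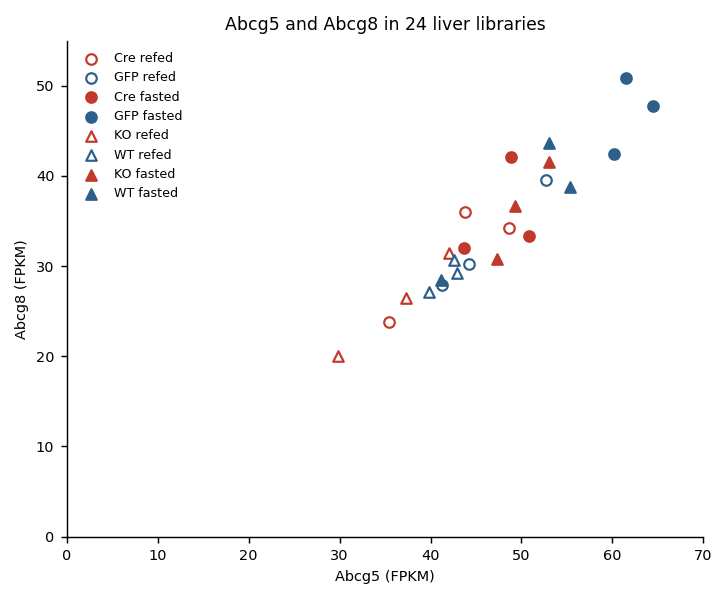
Abcg5 against Abcg8 in FPKM, 1 point per library. Circles are acute and triangles constitutive livers, red FoxO1-deleted and blue control, open refed and filled fasted. The 24 points follow 1 band, with Abcg5 at 1.16 to 1.54 times Abcg8, and the 3 GFP fasted libraries lie at its upper end.

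The genes most like each member were sought among 5952 genes with a median of at least 5 FPKM, by Pearson r of log2(FPKM + 1) over the 24 libraries, each model centred on its own mean. For Scarb1 they were Mug1 (0.90), Slc35e2 (0.86) and 8430419L09Rik (0.85), and for Lipc Plscr2 (0.88), Igfbp2 (0.86) and Kcnn2 (0.85). For Abcg5 Abcg8 came first (0.94), ahead of Pbld1 and Stat5b (0.86 each), and Abcg8 was followed by Ngef and Rbm33 (0.84 each) after Abcg5. Abca1 was most like Xiap and Deptor (0.84 each) and Vcl (0.83), and Lcat most like Slc15a4 (0.81), D19Wsu162e (0.79) and Tcn2 (0.77). Pltp had no close match, with Mettl7b (0.72), Prkab1 (0.70) and Nop10 (0.69). For Abcg1 they included the Kupffer cell marker Cd5l (0.71) and Lgmn (0.70).

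The controls of the models were compared to see how far virus-treated floxed livers resemble untreated floxed ones. Averaged over both states, 0 of 7 members were called by limma and 2 had an unadjusted p under 0.05, where 2.29% of 10682 genes were called and 21.2% reached that p. Pltp gave -0.49 ± 0.178 (adjusted p = 0.128), at 9.35 ± 0.502 FPKM in GFP refed and 14.6 ± 3.77 FPKM in WT refed livers (SD, n = 3 each). Abcg5 gave 0.23 ± 0.0919 (adjusted p = 0.169), at 62.1 ± 2.22 FPKM in GFP fasted and 49.8 ± 7.59 FPKM in WT fasted livers. The differences of Scarb1, Lipc, Abca1 and Lcat were smaller than their SE. Other lists differed between these controls. Of 10 endothelial markers, 6 were called higher in GFP livers (median 0.47), while 10 of 10 Kupffer cell markers lay below 0 (median -0.48, 0 called by limma, 5 at an unadjusted p under 0.05). Of 19 SREBP2 targets, 19 lay above 0, with a median of 0.55, 4 called higher and 14 at an unadjusted p under 0.05. Apoa1 was called lower, at -0.36 ± 0.0667 (adjusted p = 0.0114). The erythroid marker Hbb-bs, listed as Beta-s, was also called lower by limma, at -2.54 ± 0.443 (adjusted p = 0.00985). Model, virus and library depth cannot be told apart in this comparison.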

How the data were processed

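Stranded mRNA libraries were made from liver RNA, per the labels' protocols. The deposited files give 1 FPKM value per locus, which the authors computed. HISAT2, Cufflinks, Cuffdiff and the mm10 build are listed, without versions, in the submitters' processing notes. The strand setting is not stated. Loci with a failed status in 1 or more libraries, 14 in all and 0 of them members, were dropped. Groups came from sample titles. Genes with FPKM of at least 1 in at least 3 fitted libraries were kept (10452 acute, 10375 constitutive, 10682 joint) and compared on the log2(FPKM + 1) scale by limma 3.58.1, run under R 4.3.3 with a mean-variance trend and a mean for each group. Single comparisons took the spread from the 12 libraries of their model, averages and model differences from all 24. P-values are two-sided, adjusted over all genes kept and called at 0.05. A fold on this scale understates changes of low genes. The procedure was run on simulated data with independent normal noise around real gene means. Its recovery of small changes is not reported here, so this check says nothing on results that did not pass. Total depth is unknown, so no counting intervals were computed. The authors' deposited intervals, given above for Abcg1, reached 8.35% to 21.5% of the value to each side for Pltp.

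The 8 genes, the lists and the tests were chosen with earlier results of these data known. All members were named, with Foxo1, up to 4 called genes per pathway list by size of change, and the 3 genes most like each member. A few genes that this rule names are not reported here. Pathway lists overlap in some genes, and no list was tested as a set. Lists of cholangiocyte, adipocyte, acinar, neutrophil, lymphocyte and erythroid markers had 3 or fewer genes tested, and none of these was called in the average deletion or refeeding effect. The erythroid marker called between the controls is given above. Protein sequences were not used here. Replicate numbers were not used to pair samples. Correlations of same-numbered deviations ran from -0.33 to 0.37, with no comparison in which all 3 passed 0.1. In both knockout refeeding comparisons 2 of the 3 did. The highest in acute refeeding were those of the deeper libraries, 0.37 for Cre 1 and 0.25 for GFP 3. Within a genotype of the acute model the number thus goes with depth, and the main fit has no term for it. Tables were handled in Python 3.11.15 with pandas 2.3.3, and figures drawn with matplotlib.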

Additional observations from a re-analysis of the deposited data

How the results depend on the processing

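The number of members called was recomputed with a pseudocount of 0.1, no filter on low values, median-of-ratios scaling, the compared groups alone, a replicate block, calls at 0.01, without the 4 deeper acute libraries and with each library left out. A spread shared by all 24 libraries and each model alone were added after the data had been seen. Of 102 counts apart from single libraries left out, 93 stayed within 1.5 times. Counts that moved from 0 were 2 for fasted acute knockouts and 1 for constitutive knockout refeeding (24-library spread), 1 for fasted constitutive knockouts (median of ratios), and, for acute control refeeding, 2 (median of ratios), 1 (without deeper libraries) and 2 (24-library spread). Within single models the average deletion count of 2 became 1 (acute), and the average refeeding count of 4 became 2 (acute) and 2 (constitutive). With single libraries left out, counts ranged from 0 to 1 for fasted acute knockouts (Scarb1 called without Cre fasted 1, adjusted p = 0.0273), from 0 to 2 for acute control refeeding (Lipc and Abcg5 without GFP refed 3) and from 0 to 1 for constitutive knockout refeeding (Abcg5 without KO refed 3). The average counts ranged from 2 to 3 for deletion and from 3 to 5 for refeeding.

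Signs turned for Abcg8 in acute knockout refeeding without the deeper libraries (0.10), for Abca1 (-0.069) and Lcat (0.021) in the average deletion effect within the constitutive model, and for Abca1 in average refeeding within that model (-0.012). None of these was called either way, and the cause was not tested. The average fall of Scarb1 on refeeding was lost without the filter (adjusted p = 0.0558), without the deeper libraries (0.0709) and within the acute model (0.756), over a range of 0.00887 to 0.756. The replicate block changed no call of a member: Scarb1 in average refeeding had an adjusted p of 0.04 with it. The block gave each number 1 effect within a model. The deeper libraries were number 1 with Cre and number 3 with GFP, so the block could not fully take up depth. With 3 libraries a group and unknown total depth, changes of Abcg1 could not be resolved.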
